A study of Mus musculus with 2 samples.

Results

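Activity-regulated genes are genes whose transcription responds within minutes to hours to synaptic input, growth factors or stress. The 33 listed genes of this kind were matched by gene name in the alignment-free transcript tables, and all 33 were found among the 55536 annotated genes. They comprise 6 subunits of the transcription factor AP-1, 4 Egr zinc-finger factors, 3 Nr4a orphan nuclear receptors, 6 further transcription factors or nuclear regulators, 4 MAP kinase phosphatases, 5 growth arrest or kinase genes, and 5 synaptic or secreted effectors. The rule uses gene names and no measured value, but the members and the other gene lists were chosen with earlier results of these data known.

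The tissue was left cerebral cortex, taken from B6CASTF1/J females, first-generation hybrids of the strains C57BL/6J and CAST/EiJ, at an age of 18 to 20 months. Total RNA (300 ng a library, spike-ins included) went into 2 libraries, and the labels place both in 1 group as biological replicates 1 and 2. No treatment, genotype or younger group was compared, so the values describe the level of these genes in old cortex and the difference between the libraries. The labels do not give the state of the animals before the tissue was taken. The labels give the biosamples separate entries but the same donor entry, so it is not clear that they came from separate mice. Every SD (n = 2) and ratio here then measures only the spread between these libraries, which may be technical.

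In neurons, calcium entry through NMDA receptors and voltage-gated channels activates CaM kinases and the MAP kinase cascade. These phosphorylate CREB and the partners of serum response factor, which already sit on the promoters of immediate early genes. The first products are mostly transcription factors (Fos, Egr1, Npas4), which then act on later genes, together with effectors that act at the synapse itself, such as Arc and the short form of Homer1. Their messages are usually short-lived, and the phosphatases and Btg-type genes among them feed back on the signal.

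Homer1 and Fosb are the members for which alternative transcripts give proteins with different action, so the sequences that tell the transcripts apart are shown first. Long Homer1 proteins hold a coiled coil that links them to each other, and they tether metabotropic glutamate receptors. Short ones lack the coiled coil and compete with the long forms. The sequences below, from the GENCODE M21 transcripts (mm10, plus strand of chromosome 13), start with the last 20 bases of the coding exon that ends at position 93356079, in lower case. What follows in each transcript is in capitals, to the stop codon or for 60 bases.
Homer1-204: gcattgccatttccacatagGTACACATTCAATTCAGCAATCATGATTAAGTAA
Homer1-207: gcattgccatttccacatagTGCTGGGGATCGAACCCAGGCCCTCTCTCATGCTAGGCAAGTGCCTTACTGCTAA
Homer1-203: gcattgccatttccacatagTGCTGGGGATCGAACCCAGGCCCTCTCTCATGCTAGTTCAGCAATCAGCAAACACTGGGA
Homer1-202: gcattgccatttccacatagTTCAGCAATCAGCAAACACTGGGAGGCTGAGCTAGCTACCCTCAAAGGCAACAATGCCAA
Homer1-204 reads on into the intron at 93356080 and stops after 186 codons, the arrangement of the activity-induced form Homer1a. Homer1-207 uses an exon that begins at 93386345 and stops after 193 codons. Homer1-203 uses the first part of that same exon and then joins the exons of the long form, reaching 366 codons. Homer1-202 goes straight to those exons, with 538 bases to the end of the stop codon against 574 in Homer1-203. It still reaches 370 codons, so its coding sequence also differs from that of Homer1-203 before the stretch shown.

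Fosb encodes a full-length AP-1 subunit, and a shorter form without the carboxy-terminal end, known as ΔFosB, arises when a stretch of the last coding exon is spliced out. That stretch is 140 bases long, from 19305007 to 19305146 on the minus strand of chromosome 7, and is in capitals in Fosb-201. In Fosb-206 it is missing, and the capitals mark the stop codon formed at the new junction.
Fosb-201: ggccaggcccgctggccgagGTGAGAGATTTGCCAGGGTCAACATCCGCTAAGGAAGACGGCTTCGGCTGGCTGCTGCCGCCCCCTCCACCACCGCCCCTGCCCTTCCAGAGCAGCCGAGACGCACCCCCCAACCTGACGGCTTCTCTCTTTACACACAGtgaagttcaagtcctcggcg
Fosb-206: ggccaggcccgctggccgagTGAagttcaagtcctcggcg
Fosb-201 encodes 338 codons and Fosb-206 237.

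The libraries held 32357983 and 24798683 counts on genes in replicates 1 and 2. A gene with no count could therefore have had up to 3 counts, or 0.0927 and 0.121 CPM. The tissue label was set against marker lists: all 6 excitatory neuron markers reached 1 TPM (transcript abundance corrected for length and scaled to a fixed library total) in both libraries, and their summed level was 1874 and 1951 TPM. The 5 choroid plexus markers summed to 10.3 and 6.23 TPM, and the 5 dentate gyrus markers to 6.19 and 5.17 TPM. The 5 striatal projection neuron markers, which cortex also expresses in part, summed to 141 and 125 TPM. In bulk tissue, a difference in the number of cells of a type cannot be told apart from a difference in RNA per cell.

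Nearly all of these genes were expressed. Of the 55536 annotated genes, 14804 reached 1 TPM in both libraries. Of the 33, 32 did so, and 30 reached 5 TPM. The exception was Atf3, a stress-induced transcription factor of the ATF/CREB family, at 0.390 TPM (16 counts) in replicate 1 and 1.45 TPM (46 counts) in replicate 2. The median over the 33 genes was 20.0 TPM in replicate 1 and 24.9 TPM in replicate 2 (22.5 ± 3.46, SD, n = 2), against 15.5 and 16.0 TPM over the 12844 expressed nuclear protein-coding genes. Above that coding median in both libraries lay 19 of the 33. Their levels were unequal: Homer1, Arc, Egr1 and Plk2 together held 41.7% and 42.6% of the summed 1220.3 and 1466 TPM.

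**Figure D1:**
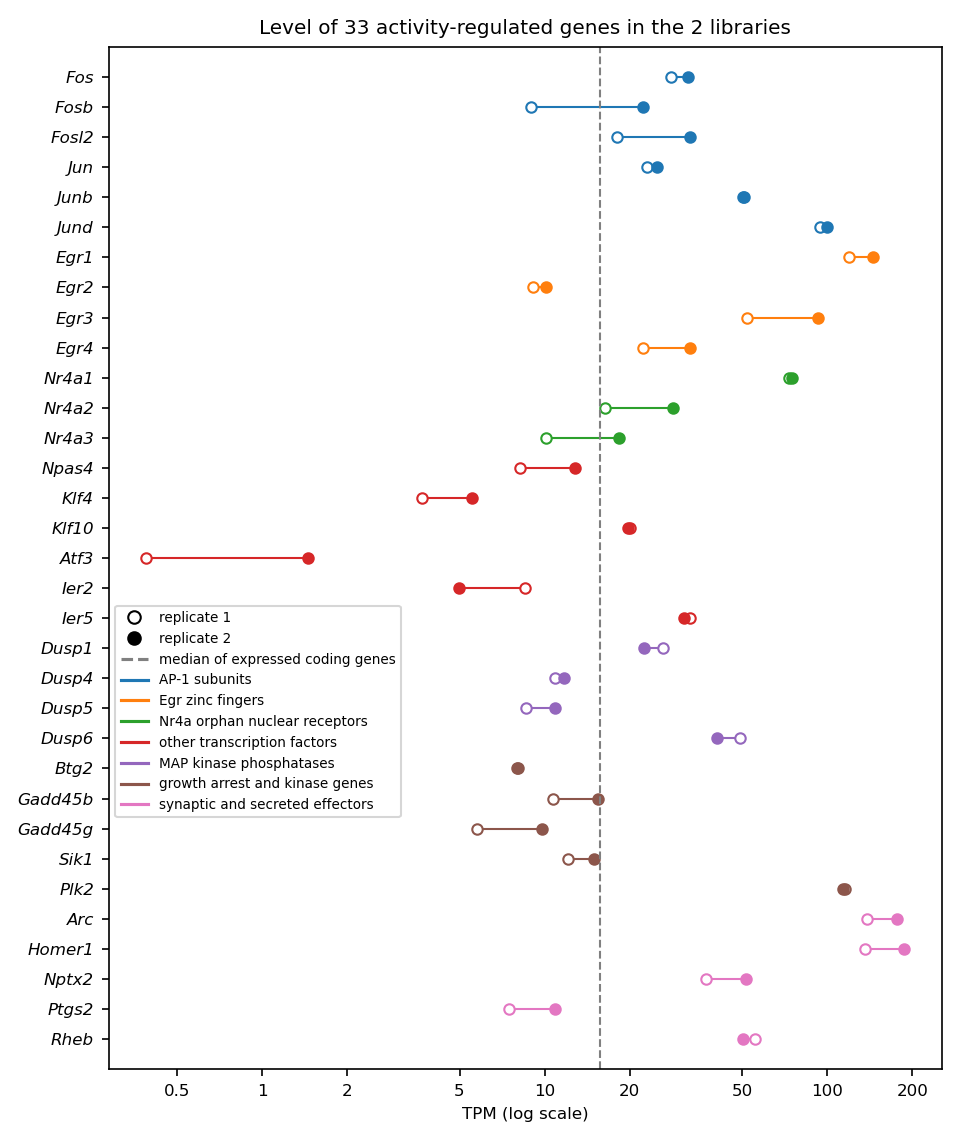
TPM of each of the 33 genes (log axis) in replicate 1 (open points) and replicate 2 (filled points), coloured by role, with a dashed line at the mean of the 2 libraries' medians of expressed nuclear protein-coding genes. Homer1, Arc, Egr1 and Plk2 lie above 100 TPM in both libraries, and Atf3 lies lowest.

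The difference between the libraries was larger for these genes than for most. It is given as the log2 ratio of replicate 2 to replicate 1, from expected counts scaled by the trimmed mean of M values (TMM), with a 95% exact (Clopper-Pearson) interval that covers counting error only. With 1 library a side this ratio has no test. Of the 33 genes, 23 were higher and 10 lower in replicate 2, the median ratio was 0.32 (range -0.81 to 1.77), and the median size of the ratio regardless of sign was 0.39. Over the 12569 genes averaging at least 100 counts, called well-counted here, the median ratio was -0.02, the median size 0.13, and the middle quartiles ran from -0.14 to 0.11. Scaling to the spike-ins raised the median of all genes by 0.16 and left 30 of the 33 higher in replicate 2. Beside this shift the 33 genes' median was 0.48.

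Past 1.5-fold, 7 of the 33 genes were higher in replicate 2: Atf3, Fosb, Nr4a3, Fosl2, Nr4a2, Egr3 and Gadd45g. One was lower, Ier2. The background is 10.7% of the 18246 genes tested higher and 3.62% lower. Low counts widen these shares: among the 12569 well-counted genes, 2.76% were higher and 1.01% lower past 1.5-fold, and of the 32 members among them, 6 were higher and 1 lower. The members' share higher thus lay above the background in both sets of genes. Since the members were chosen with earlier results of these data known, this excess is a description only. The counting interval lay above 0 in 20 members and below 0 in 6, against 20.7% and 24.1% of the well-counted genes.

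**Figure D2:**
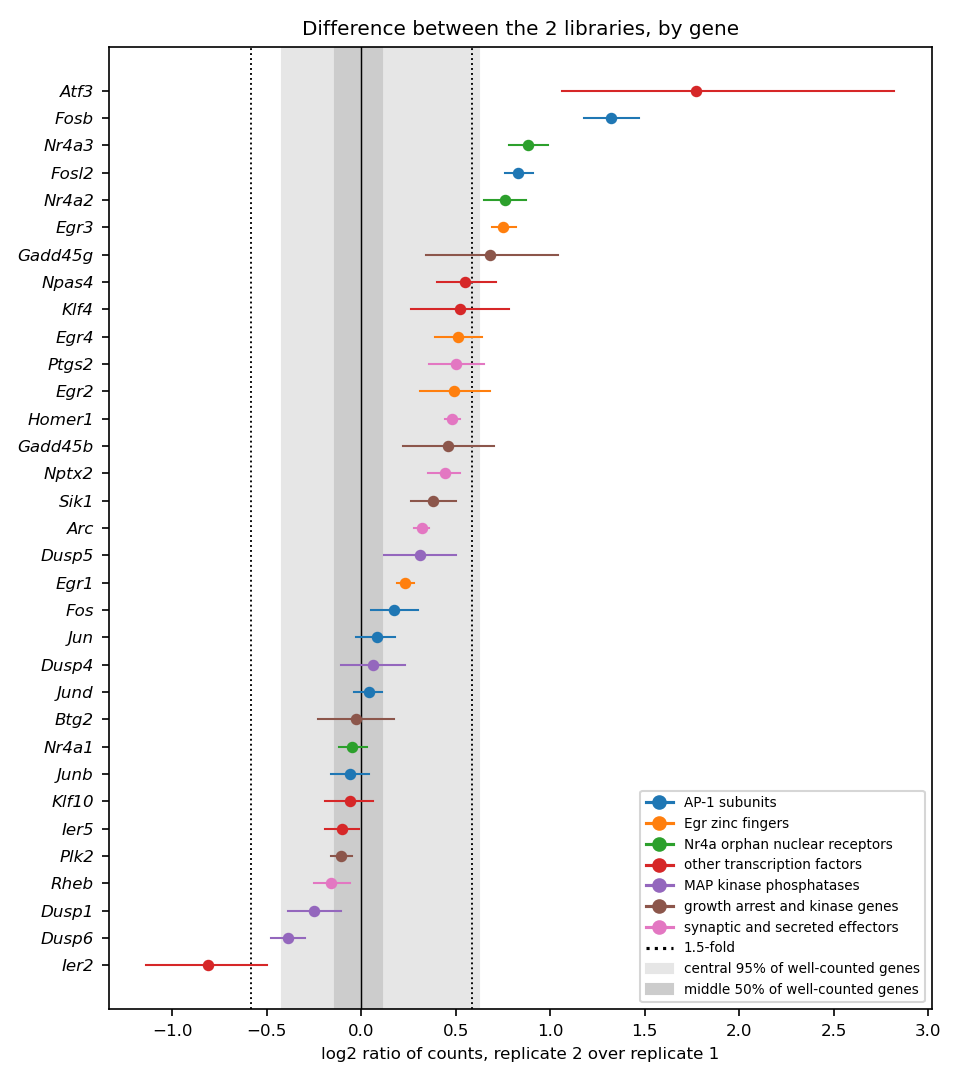
The log2 ratio of counts in replicate 2 over replicate 1 for each gene (points, coloured by role) with its 95% counting interval (lines). The darker band holds the middle quartiles and the lighter band the central 95% (-0.42 to 0.62) of well-counted genes, and the dotted lines mark 1.5-fold. Atf3 and Fosb lie farthest to the right and Ier2 farthest to the left; with spike-in scaling the 7 genes from Btg2 down to Rheb turn positive.

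Other lists moved between the libraries too. The 6 glucocorticoid-responsive genes were all higher in replicate 2, with a median ratio of 0.65, and Fkbp5 (16.1 and 28.9 TPM), Tsc22d3 (33.5 and 65.4 TPM) and Zbtb16 (27.1 and 58.0 TPM) passed 1.5-fold. Every marker of red blood cells was lower, with a median of -0.60 and summed levels of 587 and 377 TPM. The medians were -0.34 over 5 oligodendrocyte markers (572 and 482 TPM), -0.33 over 5 microglia markers (70.8 and 64.0 TPM) and -0.32 over 6 inhibitory neuron markers (547 and 470.0 TPM). They lay nearer 0 for excitatory neurons (-0.05), for astrocytes (-0.06, 653 and 567 TPM) and for endothelial cells (-0.10, 82.0 and 81.1 TPM), but single markers of the last 2 lists were lower past 1.5-fold: Gfap of astrocytes at -0.90 (4254 and 1754 counts) and Cldn5 of endothelial cells at -0.68. Aif1 of microglia (-0.59), Ttr of choroid plexus (-1.25) and the globin genes Hba-a1, Hba-a2 and Hbb-bs (-0.72, -0.73 and -0.60) were also lower past 1.5-fold. The choroid plexus, striatal and dentate gyrus lists had medians of -0.20, -0.19 and -0.22. No marker on these lists was at 0 in both libraries. The part of any of these in the members' difference was not tested.

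The 6 AP-1 subunits, which pair through leucine zippers to bind DNA, had a summed level of 223 TPM in replicate 1 and 262 TPM in replicate 2. Jund, the most constitutive Jun protein, was the most abundant at 94.3 and 99.6 TPM, followed by Junb at 50.8 and 50.4 TPM. Fos, the classical marker of recent neuronal activity, stood at 27.9 and 32.1 TPM. Jun, whose product forms the core partner of Fos, stood at 23.0 and 24.9 TPM. In each of these 4 genes the libraries lay close together. Fosl2, a Fos-related subunit with slower kinetics, stood at 18.1 and 32.7 TPM. Fosb, the subunit known for accumulating after repeated stimulation, had 8.94 and 22.3 TPM.

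The AP-1 genes split by how far the libraries differed. The Fosb ratio was 1.32 (counting interval 1.18 to 1.47, 632 and 1217 counts), or 2.50-fold, and 0.2% of the well-counted genes had a higher ratio. For Fosl2 it was 0.83 (0.76 to 0.91, 2378 and 3256 counts). The other 4 were within the middle of all genes or near it: Fos at 0.17 (0.05 to 0.30), Jun at 0.08, Jund at 0.04 with a sign that turns in the alignment-free tables (-0.01), and Junb at -0.06, which turns to 0.10 with spike-in scaling. The intervals of Jun, Jund and Junb included 0. The gene bodies of Jun, Junb and Jund each overlap a gene on the opposite strand (Junos, Prdx2 and Gm11175). Whether counting used strand is not given in the sources used here. Reads in a stretch shared by the transcripts therefore cannot be told apart from those of the partner, and the length of such stretches was not measured.

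All 4 Egr genes were higher in replicate 2. Egr1, a zinc-finger factor widely used to map neuronal activity, was the most abundant of the family at 119 and 145 TPM, at percentile 95.6 of the 14804 expressed genes. Egr3, which acts downstream of the first wave and represses as well as activates, stood at 51.8 and 92.6 TPM. Egr4 had 22.2 and 32.6 TPM. Egr2, which also directs myelination in Schwann cells, was lowest at 9.13 and 10.1 TPM. The order from Egr1 to Egr2 was the same in both libraries, with no overlap between neighbours.

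The largest ratio in the family was that of Egr3, 0.75 (0.69 to 0.82, 3628 and 4701 counts), the only member of the 4 past 1.5-fold. Egr4 had 0.51 (0.39 to 0.64) and Egr2 0.49 (0.31 to 0.68). Egr1, with 8434 and 7629 counts before scaling, had 0.23 (0.19 to 0.28). For Egr2 the difference by TPM was smaller than by counts, since a short transcript of 356 bases held 2.45 TPM from 14.2 counts in replicate 1 and nothing in replicate 2.

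The Nr4a receptors, which act without a known natural ligand, parted in the same way as the AP-1 genes. Nr4a1, the most abundant, had 73.1 and 74.9 TPM, a ratio of -0.05 (-0.12 to 0.03) that turns to 0.11 with spike-in scaling. Nr4a2, needed for the dopaminergic lineage and expressed in deep cortical and claustral neurons, had 16.4 and 28.4 TPM and a ratio of 0.76 (0.65 to 0.87). Nr4a3 had 10.1 and 18.3 TPM and a ratio of 0.88 (0.78 to 0.99). Nr4a2 and Nr4a3 thus lay above all but 1.7% and 1.2% of the well-counted genes, and Nr4a1 lay in their middle.

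Among the further transcription factors, Npas4, a neuron-specific factor induced by calcium entry, had 8.17 and 12.8 TPM (ratio 0.55, 0.40 to 0.71). Klf4, a zinc-finger factor that restrains axon growth, had 3.69 and 5.55 TPM (0.52, 0.26 to 0.78). Klf10, an early target of TGF-beta, had 20.0 and 19.8 TPM, and its ratio of -0.06 turns to 0.10 with spike-in scaling. The low level of Atf3 makes its ratio of 1.77 imprecise (1.06 to 2.82), and it rests on 16 and 46 counts. Atf3 also overlaps Gm24748 on the opposite strand.

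Ier2 and Ier5 are short nuclear regulators of the immediate early class, each made from a single exon. Ier5 had 32.6 and 31.2 TPM, a ratio of -0.10 (-0.19 to -0.01) that turns to 0.06 with spike-in scaling. Ier2 had 8.51 and 4.96 TPM (273 and 119 counts), lower in replicate 2, with a ratio of -0.81 (-1.14 to -0.50), with only 0.3% of well-counted genes lower. Ier2 was the 1 member of the 33 that was lower past 1.5-fold under each of the 4 scalings used.

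The MAP kinase phosphatases, which remove phosphate from ERK, JNK and p38, differed from the other roles in having a median ratio below 0 (-0.10). Dusp6, a cytoplasmic phosphatase selective for ERK, was the most abundant at 49.3 and 40.8 TPM and had the lowest ratio, -0.39 (-0.48 to -0.30). Dusp1, a nuclear phosphatase with broad action, had 26.3 and 22.4 TPM and -0.25 (-0.39 to -0.11). Both intervals lay below 0, and both ratios remained negative with spike-in scaling (-0.23 and -0.09). Dusp4 and Dusp5 had 0.22 and 0.47 with that scaling, so the median of this role turned positive. Dusp4 stood at 10.9 and 11.7 TPM with a ratio of 0.06 (-0.11 to 0.23). Dusp5, a nuclear phosphatase specific for ERK, stood at 8.56 and 10.9 TPM with a ratio of 0.31 (0.12 to 0.50). No phosphatase passed 1.5-fold. Dusp1 is annotated over 56539 bases because of long minor transcripts that run across Ergic1 and other genes, and Dusp5 overlaps AC137853.2 on the opposite strand.

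Plk2, a kinase that acts in homeostatic weakening of synapses, was the most abundant of the growth arrest and kinase genes at 116 and 114 TPM. Its ratio was -0.11 (-0.16 to -0.05), which turns to 0.05 with spike-in scaling. Sik1, a salt-inducible kinase that restrains CREB coactivators, had 12.1 and 15.0 TPM (0.38, 0.26 to 0.50). The Gadd45 genes encode small stress sensors that also take part in DNA demethylation. Gadd45b had 10.7 and 15.4 TPM (0.46, 0.22 to 0.70), and Gadd45g had 5.78 and 9.77 TPM from 126 and 156 counts (0.68, 0.34 to 1.04). Btg2, an antiproliferative cofactor of mRNA deadenylation, stood level at 8.00 and 8.07 TPM, and its ratio of -0.03 (-0.23 to 0.17) turns to 0.13 with spike-in scaling.

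Among the effectors were the 2 genes with the highest mean level of the 33. Homer1, the postsynaptic scaffold described above, had 136 and 187 TPM (0.48, 0.44 to 0.52). Its gene body overlaps Gm47088 and Gm47075 on the same strand, and shared reads were not examined. Arc, which drives internalisation of AMPA receptors and forms virus-like capsids, had 138 and 177 TPM (0.32, 0.28 to 0.36). The 2 genes stood at percentiles 96.7 and 96.6 of the expressed genes, and their order turned between the libraries.

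Nptx2, a secreted pentraxin that gathers AMPA receptors on interneurons, had 37.2 and 51.7 TPM (0.44, 0.35 to 0.52). Ptgs2, the inducible cyclooxygenase of excitatory neurons, had 7.48 and 10.9 TPM (0.50, 0.36 to 0.65). Rheb, the small GTPase that activates mTORC1, was the exception among the effectors, at 55.5 and 50.4 TPM, and its ratio of -0.16 (-0.25 to -0.06) turns to 0.01 with spike-in scaling. The other 4 effectors were higher in replicate 2, none past 1.5-fold. Rheb also overlaps Gm25363 on the same strand.

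By role, then, the median ratio was 0.76 over the Nr4a genes, 0.50 over the Egr genes and 0.44 over the effectors. It was 0.38 over the growth arrest and kinase genes, 0.23 over the further transcription factors, 0.12 over the AP-1 subunits, beside the -0.10 of the phosphatases. With spike-in scaling the phosphatases' median was positive. Each of these role medians covers 3 to 6 genes.

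A further pair of lists gives the surrounding pathway. The 14 upstream regulators, kinases and transcription factors that are present before stimulation, were all expressed, with median levels of 41.5 and 42.4 TPM. Their ratios ran from -0.15 to 0.31 with a median of 0.06, and 0 of 14 passed 1.5-fold in either direction. That lies near the background of 2.76% higher and 1.01% lower among well-counted genes. Mef2c, the most abundant, had 264 and 252 TPM, and Creb1 had 23.6 and 26.2 TPM. Srf, which binds the serum response element, had 30.1 and 33.9 TPM. Of 18 other activity-responsive genes, 17 had enough counts to be tested. Their median ratio was 0.13 (range -0.32 to 0.96). Past 1.5-fold, 2 of the 17 were higher and 0 lower, near the 10.7% and 3.62% of all genes tested. Those 2 were Rasd1 and Maff. Rasd1, a Ras-like protein that is also induced by glucocorticoids, had 3.29 and 6.63 TPM. Maff, a small Maf factor, had 0.780 and 1.39 TPM from only 32.0 and 40.0 counts.

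On that second list 13 of the 17 genes were higher and 4 lower in replicate 2; Bdnf and Zfp36 turned lower by alignment-free counts (-0.01 and -0.06). Scg2, a precursor of secretory granule peptides, had 101 and 83.6 TPM (-0.32), and Vgf, a neuropeptide precursor, had 171 and 154 TPM (-0.25); Nrn1 (-0.22) and Trib1 (-0.06, or 0.10 with spike-in scaling) were the other two lower. Pcsk1, which cleaves such precursors, had 16.2 and 20.6 TPM (0.32), and Inhba, a secreted activin subunit, had 6.47 and 7.05 TPM (0.22). Bdnf, the neurotrophin, had 12.8 and 13.9 TPM, a ratio of 0.06. Per1, a clock gene with CREB-responsive promoter sites, had 55.1 and 73.6 TPM (0.43).

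Homer1 showed that the excess in replicate 2 was unequal among transcripts. Transcripts with an early stop codon (Homer1-204 to Homer1-208) held 59.0% of the Homer1 TPM in replicate 1 and 69.2% in replicate 2 (64.1 ± 7.16, SD, n = 2). In the alignment-free tables the shares were 51.0% and 58.9%. The long forms, which share the last stop codon, had 55.6 and 57.7 TPM, a ratio of 1.04, or 1.11 in the alignment-free tables. Homer1-204, with the intron read-through shown above, had 26.4 TPM (3346 counts) in replicate 1 and 54.4 TPM (5150.3 counts) in replicate 2. That is 2.06-fold, and 39.1 and 80.7 TPM in the alignment-free tables gave 2.06-fold as well. Its last exon lies within an intron of the other forms, so reads from unspliced Homer1 precursor cannot be told apart from this transcript. All other Homer1 transcripts together had a ratio of 1.21, or 1.20 in the alignment-free tables, beside a median ratio of 1.02 over expressed nuclear protein-coding genes. Among them, the short forms other than Homer1-204 had a ratio of 1.39 in the alignment-based tables. Homer1-205 and Homer1-206 continue at 93366243 and 93366278, and Homer1-207 runs past the exon part used by Homer1-203. These stretches lie in introns of long forms, so precursor reads there cannot be told apart either. Over expressed nuclear protein-coding genes, transcripts not classed as protein coding had median shares of 9.80% and 13.2%. The part of precursor in the short-form share was not tested.

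Homer1-207, the transcript that extends the exon at 93386345, led in all 4 tables with 41.8 and 56.4 TPM in the alignment-based ones. Homer1-203, which uses the short version of that exon, had 31.9 and 32.4 TPM, and Homer1-202 had 23.7 and 24.2 TPM. Both long forms were thus level between the libraries. One long-class transcript depended on the method: Homer1-210, a fragment that joins the first exon to the coiled-coil exons, was listed at 0 in the alignment-based tables and had 33.3 and 42.3 TPM in the alignment-free ones.

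For Fosb, both protein forms were higher in replicate 2. Fosb-201, the full-length transcript, led in all 4 tables with 4.67 and 15.7 TPM, 3.37-fold, and 3.15-fold in the alignment-free tables. Its share of the gene was 52.2% and 70.4% (61.3 ± 12.8, SD, n = 2). Fosb-206, the form without the 140 bases, had 1.69 and 3.48 TPM, 2.06-fold, and 2.07-fold in the alignment-free tables. Summed over transcripts, the full-exon form held the larger share in all 4 tables. Whether its share rose or fell in replicate 2 depended on the kind of table. In the alignment-based tables all transcripts with the full exon had 6.61 and 15.7 TPM (73.9% and 70.4% of the gene), and those with the stretch removed had 1.69 and 5.62 TPM (18.9% and 25.2%). In the alignment-free tables the full-exon share was 64.0% and 70.7%, and the share with the stretch removed was 28.4% and 25.1%. In the alignment-based tables Fosb-205 was listed at 0 in replicate 2 and Fosb-207 at 0 in replicate 1. Fosb-206 is annotated with only 1090 bases against 3782 for Fosb-201, so reads from the 3′ UTR beyond its annotated end are not credited to it.

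**Figure D3:**
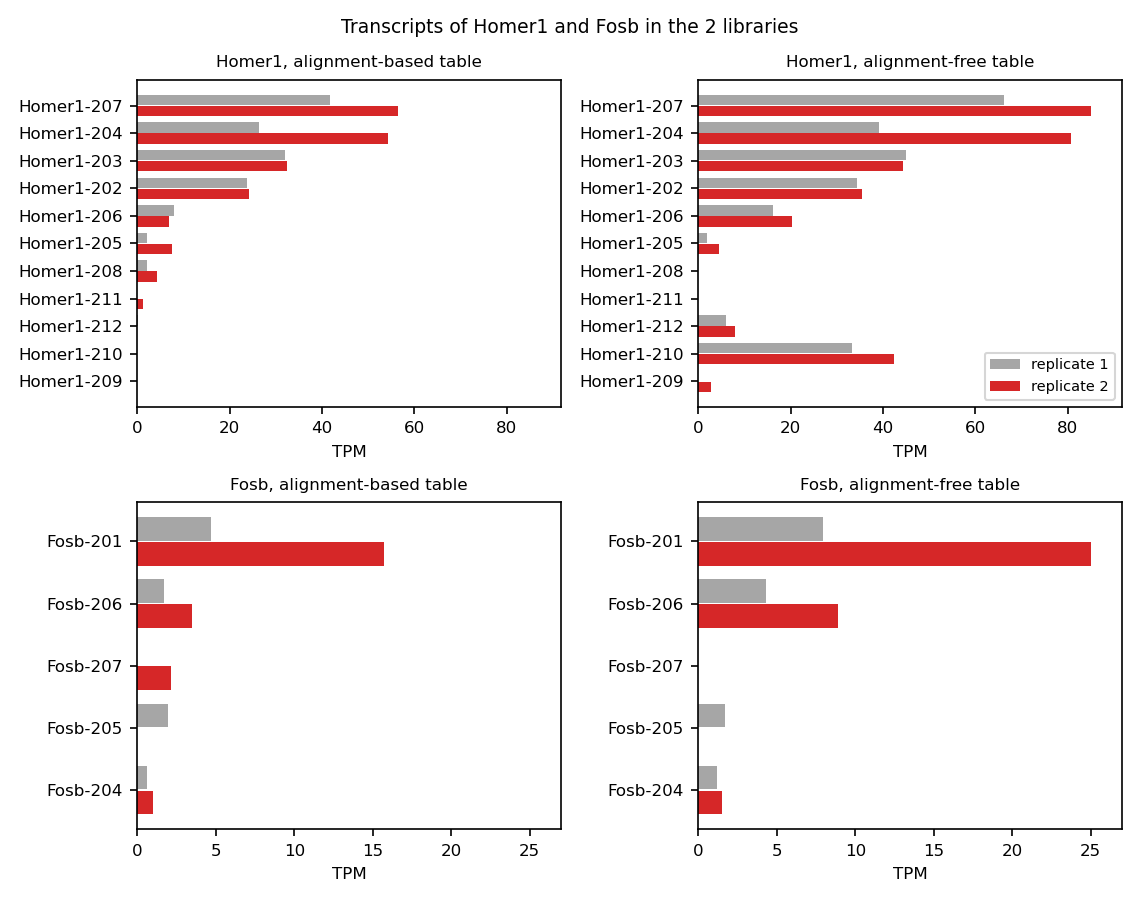
TPM of each Homer1 (top) and Fosb (bottom) transcript with at least 0.5 TPM in any table, in replicate 1 (grey bars) and replicate 2 (red bars), from the alignment-based tables on the left and the alignment-free tables on the right. Homer1-204 is 2.06-fold higher in replicate 2 in both kinds of table, while Homer1-202 and Homer1-203 are level.

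Of the 33 genes, 9 have 1 annotated transcript and 24 have several, and 21 of those 24 had the same leading transcript in all 4 tables. The exceptions were Egr3, Nr4a1 and Atf3. In Nr4a1 the alignment-based tables credited Nr4a1-201 (57.4 and 54.4 TPM) and the alignment-free tables Nr4a1-202 (90.8 and 91.0 TPM), which have the same coding length of 1803 bases. For Arc, 2 transcripts of nearly equal length with the same coding length of 1188 bases shared the gene, Arc-201 at 86.0 and 119 TPM and Arc-202 at 52.1 and 58.0 TPM.

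Transcripts not classed as protein coding, such as those with retained introns, are not annotated for 15 members, which enter at 0% by annotation. The median over the expressed members was 0% in replicate 1 and 0.298% in replicate 2, against 9.80% and 13.2% over expressed nuclear protein-coding genes. Because of those 15, the low median does not describe the members that have such transcripts. The order of the members with the most depended on the table. In the alignment-based tables Egr3 was the highest at 43.2% and 47.1%, with the unspliced Egr3-202 at 16.6 and 33.3 TPM, and Npas4 followed at 36.2% and 44.6%, with the partly spliced Npas4-202 at 2.60 and 3.69 TPM. Dusp6 held 20.8% and 26.4% there, Dusp1 18.2% and 23.7%, and Fos 20.9% and 19.9%. In the alignment-free tables Egr3 held 21.8% and 25.5%, below Fos at 42.0% and 34.2%, Npas4 at 28.8% and 35.1%, Fosl2 at 30.1% and 28.4% and Dusp6 at 26.9% and 28.8%. Total RNA includes unspliced precursors, and mature and precursor RNA were not separated here.

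The members were compact genes. Their median genomic span was 5962 bases against 26076 over 12809 expressed nuclear protein-coding genes with a coding transcript. A span under 10000 bases was found in 21 members (63.6%) and in 23.2% of the coding genes. The leading coding transcript had a median of 4 exons against 9. Jun, Junb, Jund, Ier2 and Ier5 have 1 exon (15.2%, against 2.90%). Homer1, at 105495 bases, was the longest member, followed by Dusp1 and Atf3 (47744 bases).

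A 3′ UTR element rich in A and U is known to speed the decay of many early messages. Its core, searched as TATTTAT on the transcript strand only, occurred in the 3′ UTR of 14 members (42.4%) and in 28.5% of the coding genes with a 3′ UTR. The density was 0.613 copies per 1000 bases in the members and 0.295 in the coding genes, while A and T made up 54.5% and 56.1% of the bases. Ptgs2 held the most, 6 copies, and 3 of these overlap directly after its stop codon. The stretches with the most overlapping copies and that of Fos are shown, each 30 bases long (mm10), with the core in capitals.
Ptgs2 (chr1:150105790-150105819, plus strand): ctgaccaTATTTATTTATTTATgtgaagaa
Homer1-207 (chr13:93386489-93386518, plus strand): cggtctttTATTTATATTTATaaagtattt
Fos (chr12:85477106-85477135, plus strand): tttcaattTATTTATtaagatggattctca
A match is a description of the sequence, and decay was not measured.

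Promoters were read from the RefSeq table (GRCm38.p6), as the 250 bases before each annotated start. The table matched 25 of the 33 members and did not hold Nptx2, Egr1, Egr3, Arc, Ier2, Dusp4, Klf10 and Sik1. The core of the cAMP response element, TGACG on either strand, occurred in 17 of the 25 (68.0%), against 30.6% of 10019 expressed nuclear protein-coding genes and 19.8% of all 27025 genes in the table. The full palindrome, TGACGTCA, which contains the core on both strands, occurred in 3 of the 25 (12%, against 3.12% and 1.77%), namely Dusp1, Btg2 and Plk2. The serum response element occurred in Egr2 and Dusp5 (8.00%, against 1.45% and 1.62%).

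A TATA box, TATAAA on the gene's strand, was found in Fos, Gadd45b and Gadd45g (12%, against 4.49% of the expressed coding genes and 8.94% of all genes). The CCAAT box, on either strand, was found in 8 members (32.0%, against 40.4% and 37.5%). The AP-1 site TGACTCA, on either strand, was found in 0 of the 25 (against 3.60% and 5.16%). The median share of G and C was 64.2% in the members' windows, 60.0% in those of the expressed coding genes and 52.4% in all, and base composition bears on how often a motif occurs.

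**Figure D4:**
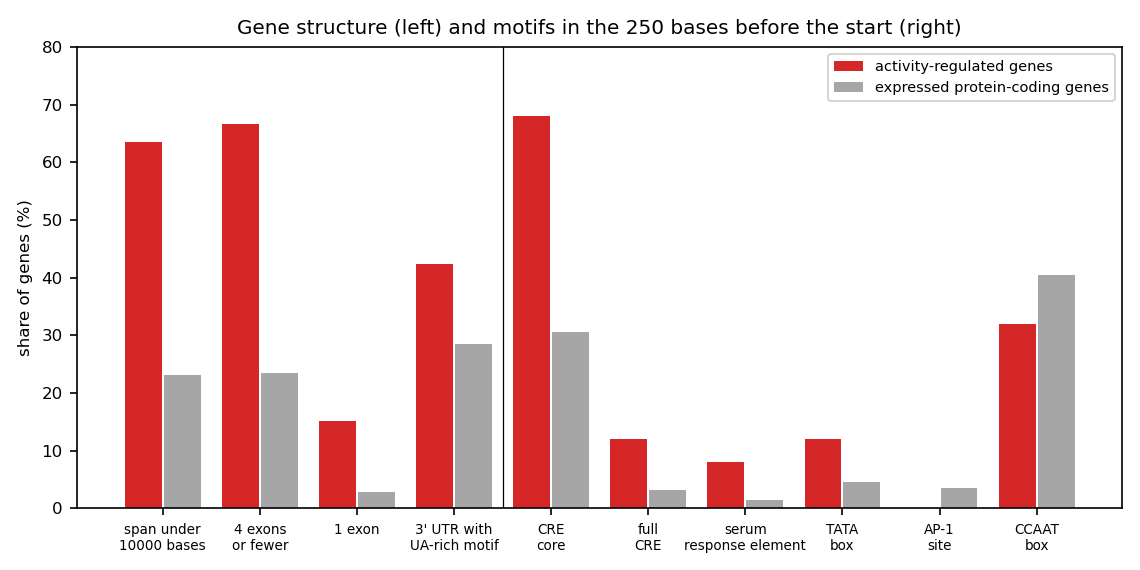
Share of genes (percent) with each feature among the activity-regulated genes (red bars) and among expressed nuclear protein-coding genes (grey bars). The left part shows gene structure over all 33 genes, and the right part promoter motifs over the 25 genes in the promoter table; the cAMP response element (CRE) core stands at 68.0% against 30.6%.

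The stretches below hold these motifs. The first 3 come from genes past 1.5-fold between the libraries, with the CRE core in capitals on whichever strand it lies. The next 3 hold the full CRE, and the last 2 hold the serum response element, in capitals in each. All are given 5′ to 3′ on the gene's strand, and none overlaps an annotated exon of a member.
Fosb (chr7:19310081-19310125, minus strand): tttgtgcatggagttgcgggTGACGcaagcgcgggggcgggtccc
Nr4a2 (chr2:57124090-57124223, minus strand): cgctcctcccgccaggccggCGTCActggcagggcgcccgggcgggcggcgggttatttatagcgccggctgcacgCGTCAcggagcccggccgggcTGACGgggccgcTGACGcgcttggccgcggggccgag
Nr4a3 (chr4:48045055-48045124, plus strand): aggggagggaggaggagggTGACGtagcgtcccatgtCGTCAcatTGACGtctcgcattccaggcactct
Dusp1 (chr17:26508588-26508635, minus strand): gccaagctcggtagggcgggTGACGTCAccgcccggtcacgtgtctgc
Btg2 (chr1:134079294-134079341, minus strand): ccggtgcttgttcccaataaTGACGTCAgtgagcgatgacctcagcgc
Plk2 (chr13:110394962-110395009, plus strand): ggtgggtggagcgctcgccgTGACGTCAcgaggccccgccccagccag
Egr2 (chr10:67537777-67537826, plus strand): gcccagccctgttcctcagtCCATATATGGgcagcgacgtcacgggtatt
Dusp5 (chr19:53529043-53529102, plus strand): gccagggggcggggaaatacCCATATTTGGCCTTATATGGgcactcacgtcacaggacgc
In Nr4a2 4 copies of the core lie within 134 bases, and in Nr4a3 3 copies within 70 bases. In Dusp5 2 serum response elements adjoin, so that 1 ends where the next begins. The 3 genes with a full CRE had library ratios of -0.25, -0.03 and -0.11, and the 3 genes past 1.5-fold shown here hold cores alone. Of the other genes higher past 1.5-fold, Atf3 also had a core, Fosl2 and Gadd45g had none, and Egr3 was not among the promoters read. A link between motif and ratio was not tested. Binding of CREB or serum response factor was not measured.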

How the data were processed

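Total RNA-seq libraries of left cerebral cortex (2, in 1 group) were analysed from the deposited tables. Per the labels, values refer to mm10 and GENCODE M21; the software is not given in the sources used here. The alignment-based tables carry the authors' expected counts, TPM and posterior mean TPM, per the file headers, while estimated counts and TPM fill the deposited alignment-free tables. The deposited expected counts are not all whole numbers; all 33 members had whole counts in both libraries, against 83.3% of genes with a mean of 100 counts.

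Levels are the deposited TPM, and a gene counted as expressed at 1 TPM in both libraries. Spike-ins and numbered short-RNA entries were left out of library sizes. Expected counts were rounded, genes with a mean of 10 counts were kept (18246), and log2 ratios came from edgeR 4.0.16 (TMM, prior count 2) in R 4.3.3. With 1 library a side no test was made. The steps were tested on simulated data for this comparison, with 18232 genes kept. Known changes were given only to a subset of genes with a mean of at least 100 counts. In that subset true log2 changes of -1 and 1 were recovered at a median of -1.04 and 1.08, and -2 and 2 at -1.91 and 2.01. Recovery at lower counts, such as those of Atf3, was not tested. Depth was 32357983 and 24798683 counts on genes; counting intervals (95%, exact) and the floor of 3 counts cover counting error only, since no molecular identifiers are given.

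All 33 members are named by rule, other genes only from fixed lists. Members and lists were chosen with earlier results of these data known. Early and shared stop codons of Homer1 were read from the GENCODE M21 annotation, because the transcript identifiers hold no coding length as had been planned. Feature and motif counts used the leading coding transcript and RefSeq promoters with Python 3.11.15. Reads of the CAST/EiJ alleles were placed on the C57BL/6J reference by the authors, and the effect was not analysed here.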

Additional observations from a re-analysis of the deposited data

How the results depend on the processing

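The count of members at 1 TPM (32) was 30 at 5 TPM, 32 in the alignment-free tables and 32 to 33 with either library left out. The median level of the members (22.5 TPM) was 34.1 TPM in the alignment-free tables and 50.9 TPM when TPM was rescaled to nuclear protein-coding genes, 22.4 as posterior mean TPM, and 20.0 to 24.9 with either library left out. The median log2 ratio of the members (0.32) lay between 0.25 and 0.33 with DESeq2 size factors, total counts, a prior count of 0.5, no filter or alignment-free counts, and was 0.48 with spike-in totals. Members past 1.5-fold numbered 8 under the first 5 of these, 16 with spike-in totals (15 higher, 1 lower), 2 past 2-fold, and 7 with a mean of 100 counts, an alternative chosen after seeing the data. The 7 higher members stayed higher past 1.5-fold in all 6 scaling, prior, filter and table alternatives. Spike-in totals added Egr2, Egr4, Npas4, Klf4, Gadd45b, Homer1, Nptx2 and Ptgs2. That scaling also raised the median of all genes by 0.16, and the share of all genes past 1.5-fold under it was not counted. The Homer1 short-form share (64.1%) was 55.0% in the alignment-free tables and 59.0% to 69.2% with either library left out; the share of Fosb-201 (61.3%) was 61.6%, and 52.2% to 70.4%. Of 198 recomputed member ratios, 31 moved by more than their counting interval's half-width. Ratios between the libraries cannot be given with a library left out. No paired analysis was possible because there is 1 group. Depth limits Atf3, Gadd45g and Ier2 most.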
